A study of Mus musculus with 12 samples.

Results

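The macrophage and Kupffer cell genes described here are 10 of the 19937 genes measured on Affymetrix MoGene 1.0 ST arrays of mouse liver cells and liver organoids. They were taken as the array rows annotated to exactly 1 of the symbols Lyz2, Clec4f, Cd5l, Vsig4, Adgre1, Marco, Csf1r, C1qa, C1qb and Cd68, and each of the 10 had 1 such row. The 12 arrays held 4 groups of 3 libraries, all on a C57Bl6 background. H1, H2 and H3 are the libraries labelled uninduced YFP+ hepatocytes, sorted from liver by FACS without Yap having been switched on. W1, W2 and W3 are those labelled wild-type organoids, also with 2 weeks of culture. The other groups were organoids from livers in which Yap, a transcriptional coactivator of the Hippo pathway, had been on for 3 weeks. Their 2 weeks of culture ran either without doxycycline and with Yap off (the Yap-off arrays) or with doxycycline and with Yap still on (the Yap-on arrays). The promoter that drives Yap, the allele behind the YFP signal and the number of animals are not stated in the labels. Replicates are not said to come from separate cultures or animals, so each p-value reflects variation among libraries alone, part of which may be technical.

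Macrophages are phagocytes of the innate immune system, and Kupffer cells are the macrophages that live in the sinusoids of the liver. They depend on signals through the receptor Csf1r, whose ligands Csf1 and Il34 are made by neighbouring cells, and on the transcription factor PU.1, encoded by Spi1. Kupffer cells carry scavenger and lectin receptors with which they clear particles, bacteria and complement-coated material from portal blood. Liver organoids are cultures of epithelial cells, for which most of these genes are not typical, although Cd68 serves lysosomes in many cell types.

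C1qb, C1qc and C1qa follow each other in the RefSeq gene order, and Lyz2 lies beside its near-identical copy Lyz1. Promoter sequence was found in the RefSeq table (GRCm38.p6) for 7 of the 10 members. The 250 bases before the annotated start were searched on both strands for GAGGAA, a purine-rich core that PU.1 binds, because the members moved together across arrays. It was present in 5 of the 7, namely Cd5l, Vsig4, Marco, C1qb and Cd68, against 23.3% of 32851 promoters of the same length. TGANTCA, a core bound by AP-1, was present in 1 of the 7, Cd68, against 6.75% of all promoters, and TATAAA in 0 of 7 against 12.4%. No match overlapped a match to another motif. The promoters of the receptors Clec4f and Vsig4 and of the secreted proteins Cd5l and C1qb are shown as examples with and without the motif, with matches to GAGGAA or its complement in capitals. That of Vsig4 held 2 matches and that of Clec4f held none, and a match is a stretch of letters and not a measured binding site.
Clec4f, chr6:83656117-83656366, minus strand: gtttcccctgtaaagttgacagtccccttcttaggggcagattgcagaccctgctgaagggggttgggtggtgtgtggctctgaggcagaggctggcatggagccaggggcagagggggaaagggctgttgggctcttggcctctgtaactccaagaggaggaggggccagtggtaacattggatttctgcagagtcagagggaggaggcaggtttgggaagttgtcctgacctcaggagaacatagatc
Vsig4, chrX:96293439-96293688, minus strand: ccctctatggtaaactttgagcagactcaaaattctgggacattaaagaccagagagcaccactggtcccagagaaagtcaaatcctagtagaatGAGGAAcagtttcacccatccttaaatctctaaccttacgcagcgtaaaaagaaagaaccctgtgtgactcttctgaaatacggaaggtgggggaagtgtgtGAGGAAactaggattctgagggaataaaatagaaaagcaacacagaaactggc
Cd5l, chr3:87357631-87357880, plus strand: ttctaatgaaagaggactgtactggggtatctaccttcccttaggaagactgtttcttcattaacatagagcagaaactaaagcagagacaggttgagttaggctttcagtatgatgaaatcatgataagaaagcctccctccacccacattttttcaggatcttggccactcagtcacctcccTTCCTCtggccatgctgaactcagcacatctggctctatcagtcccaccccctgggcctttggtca
C1qb, chr4:136886201-136886450, minus strand: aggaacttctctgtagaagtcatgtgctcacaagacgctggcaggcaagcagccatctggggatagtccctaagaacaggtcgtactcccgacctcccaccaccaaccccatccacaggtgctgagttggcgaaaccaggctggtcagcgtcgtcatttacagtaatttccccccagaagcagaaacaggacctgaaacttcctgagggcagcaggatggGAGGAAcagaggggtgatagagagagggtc

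All 10 members stood high in H2, W1 and W3, libraries that carry different labels. In each member, each of these 3 arrays lay above each of the other 9 by more than 2 on the log2 scale, while 1.76% of all genes did so (7.9% with no minimum). This arrangement was known when the members were chosen and is given as a description. H1, H3 and W2 lacked it, so that neither label describes its 3 arrays by their mean. Labels were kept in every comparison, and whether any is wrong was not tested. In bulk RNA, fewer cells of a type and less RNA per cell cannot be told apart. The plot of member levels by array shows the same split in every panel.

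**Figure D1:**
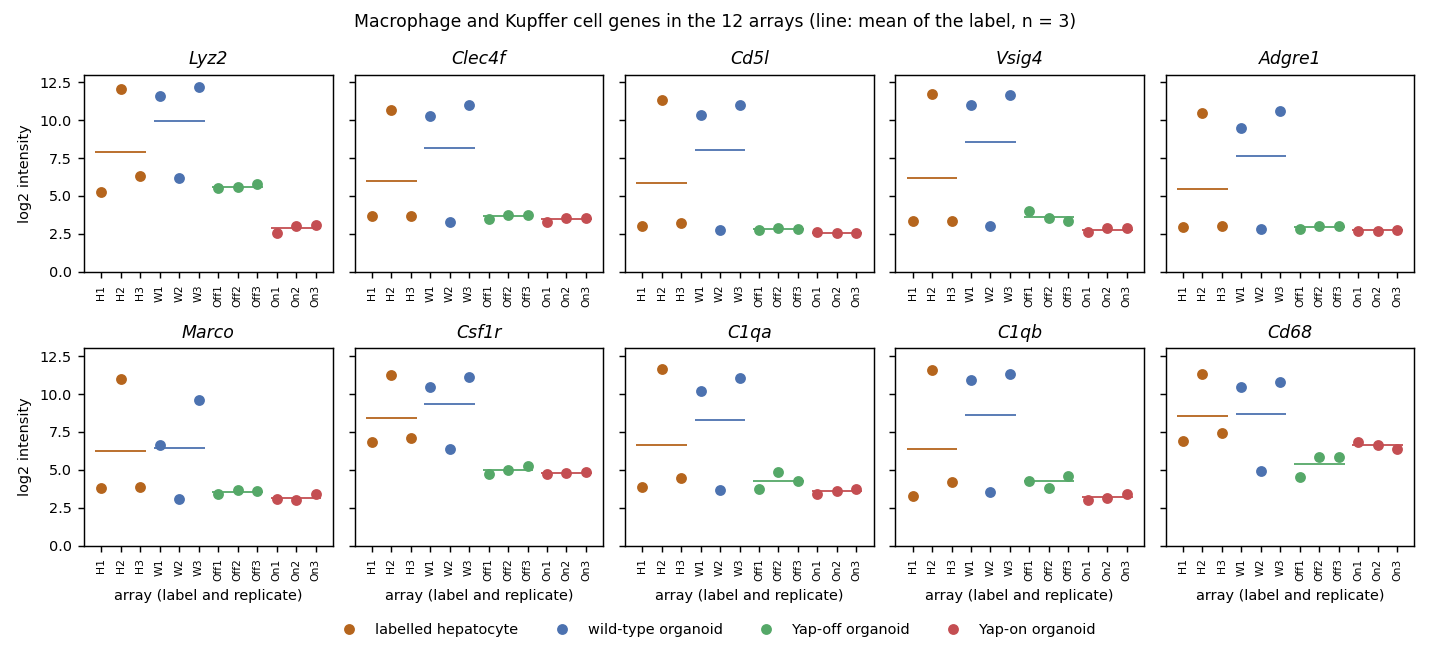
Log2 intensity of each member in each of the 12 arrays, with a line at the mean of each label (n = 3). H2, W1 and W3 stand above all other points in every panel, and Marco in W1, at 6.62, is the lowest of these.

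Csf1r, the receptor tyrosine kinase for Csf1 and Il34, read 6.86 in H1, 11.28 in H2 and 7.13 in H3 (log2 intensity, as are all levels given here). In W1, W2 and W3 it read 10.46, 6.37 and 11.15. The Yap-off arrays gave 4.71, 4.98 and 5.25, and the Yap-on arrays 4.70, 4.79 and 4.87. Csf1r thus had 3 separate levels, since H1, H3 and W2 lay below the 3 high arrays and above all 6 Yap arrays.

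Clec4f, a C-type lectin found in mice on Kupffer cells, read 3.70, 10.65 and 3.70 in H1 to H3. W1, W2 and W3 gave 10.24, 3.31 and 10.97. Its Yap-off levels were 3.49, 3.76 and 3.72, its Yap-on levels 3.31, 3.58 and 3.55. Outside H2, W1 and W3 no array passed 3.76, and the Yap-off and Yap-on levels overlapped.

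Vsig4, a complement receptor of resident macrophages, read 3.37, 11.75 and 3.34 in H1 to H3 and 10.97, 3.03 and 11.67 in W1 to W3. Its Yap-off levels were 4.02, 3.53 and 3.34, its Yap-on levels 2.62, 2.86 and 2.89. Every Yap-on array lay below every Yap-off array, and all 6 far below H2, W1 and W3.

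Adgre1, an adhesion receptor whose antigen identifies mouse macrophages in tissue, read 2.93, 10.48 and 3.03 in H1 to H3 and 9.51, 2.80 and 10.63 in W1 to W3. All 6 Yap arrays lay between 2.71 and 3.01. The 9 arrays outside the high ones spanned only 2.71 to 3.03, the narrowest such band among the members.

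Marco, a scavenger receptor that binds bacteria, was the least even of the members across the high arrays. It read 3.81, 10.99 and 3.85 in H1 to H3 and 6.62, 3.11 and 9.62 in W1 to W3, with the Yap arrays between 3.05 and 3.70. H2 stood above W1 by 4.36 on the log2 scale, which is 20.6-fold, and above W3 by 1.37. For the other 9 members the difference between H2 and W1 ran from 0.41 (Clec4f) to 1.43 (C1qa). Each of these sets 1 library against 1 and has no test.

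Cd5l, a secreted scavenger-like protein of tissue macrophages, read 3.05, 11.29 and 3.22 in H1 to H3 and 10.32, 2.79 and 10.99 in W1 to W3. The Yap arrays lay between 2.58 and 2.91. Its gap of 7.10 between the lowest of the 3 high arrays and the highest of the other 9 was the widest of the 10 members.

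C1qa and C1qb encode chains of C1q, the recognition part of the first complement component, which macrophages secrete. C1qa read 3.88, 11.63 and 4.46 in H1 to H3, 10.20, 3.70 and 11.04 in W1 to W3, 3.73, 4.87 and 4.27 with Yap off and 3.39, 3.61 and 3.77 with Yap on. C1qb, in the same order, read 3.30, 11.56 and 4.21, then 10.95, 3.52 and 11.29, then 4.29, 3.83 and 4.59, then 3.01, 3.17 and 3.42. Both split the 12 arrays alike, but with Yap on C1qb lay below all Yap-off arrays, whereas C1qa overlapped them.

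Lyz2, the lysozyme of myeloid cells, read 5.28, 12.04 and 6.30 in H1 to H3 and 11.56, 6.19 and 12.16 in W1 to W3. Its Yap-off levels were 5.50, 5.59 and 5.78, its Yap-on levels 2.59, 3.04 and 3.11. The Yap-off arrays fell within the range of H1, H3 and W2, and the Yap-on arrays lay below all others. Lyz1 read between 2.88 and 5.0 on all 12 arrays, and how far the Lyz2 probes read that copy was not tested.

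Cd68, a glycoprotein of lysosomes and endosomes, read 6.89, 11.30 and 7.44 in H1 to H3 and 10.47, 4.90 and 10.76 in W1 to W3. Its Yap-off levels were 4.54, 5.82 and 5.85, its Yap-on levels 6.84, 6.66 and 6.35. Among the 9 lower arrays its order differed from that of Lyz2, with Yap-on above Yap-off.

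Pearson correlations between pairs of members over the 12 arrays ran from 0.823 (Lyz2 with Cd68) to 0.999 (Cd5l with Adgre1). The correlation with the mean of the other members was lowest for Cd68 (0.924), Lyz2 (0.947), Marco (0.954) and Csf1r (0.961), and at least 0.991 for the rest. These are descriptions of 12 arrays in which 3 stand apart.

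Keeping Yap on in culture was compared with switching it off. No member was called by limma with Benjamini-Hochberg adjustment over 19937 genes, where 11.5% of all genes were called (7.09% higher and 4.36% lower). An unadjusted limma p under 0.05 was held by 0 of 10 members and by 5424 of all 19937 genes. The standard errors, 1.33 (Csf1r) to 2.53 (Vsig4), come from all 12 arrays and so carry the split inside the control labels. Log2 differences, Yap-on minus Yap-off, ran from -2.71 (Lyz2) to 1.21 (Cd68), with a median of -0.32 against -0.08 over all genes. In 6 members every Yap-on array lay below every Yap-off array, and in 1, Cd68, above, while 28.9% and 24.6% of all genes did so.

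When only the 6 arrays compared were fitted, 3 members were called lower and 1 higher, and 31.2% of all genes were called (12% lower, 19.1% higher). Lyz2 averaged 2.91 ± 0.28 (SD, n = 3) with Yap on and 5.62 ± 0.14 with Yap off (log2 difference -2.71, limma adjusted p = 0.363 on 12 arrays and 4.4e-05 on 6). No detection calls were used, so whether Lyz2 was above background with Yap on was not tested, and no fold is given. C1qb averaged 3.20 ± 0.21 and 4.23 ± 0.38 (log2 difference -1.03, limma adjusted p = 0.809 and 0.010), and Vsig4 2.79 ± 0.14 and 3.63 ± 0.35 (-0.84, adjusted p = 0.861 and 0.015). Cd68 averaged 6.62 ± 0.25 and 5.40 ± 0.75, a difference of 1.21 (limma adjusted p = 0.644 and 0.041). Without H2 and W2 in the fit of all groups, 3 members were called lower and 1 higher (10.8% and 18.9% of all genes). The differences are the same in that fit and only the spread changes. H2 and W2 were picked by their levels of the members, so this count lends no support. Clec4f, with a difference of -0.17, was not called, and its 95% interval on 6 arrays ran from -0.47 to 0.12. Its sign turned, to 0.0015, when quantile normalization was renewed. The plot of these differences sets both fits side by side.

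**Figure D2:**
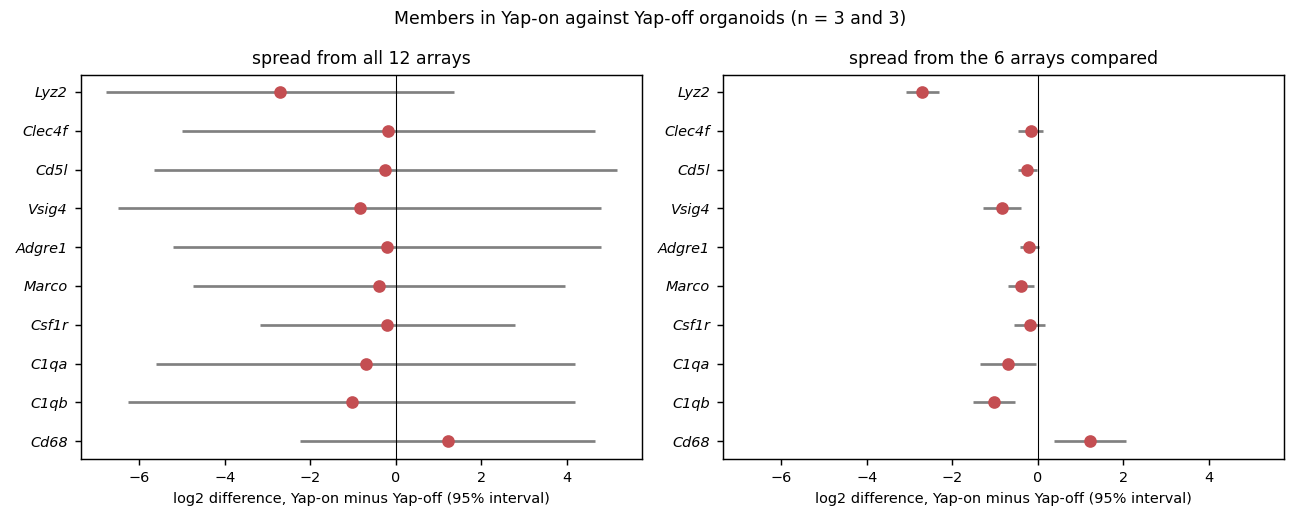
Log2 difference of each member between Yap-on and Yap-off organoids (n = 3 and 3), with its 95% interval, when the spread is taken from all 12 arrays or from the 6 arrays compared. Intervals from 12 arrays cross 0 in all 10 members, and on 6 arrays Lyz2 (-2.71) stands farthest from 0.

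Markers outside the set were read on the same arrays. Hepatocyte markers had a list median of 10.92 to 11.55 in the Yap-off and 3.23 to 3.27 in the Yap-on arrays. Ttr stayed at 11.20 to 11.32 with Yap on, against 12.26 to 12.38 with Yap off. Apoa1 read 5.82 to 7.22 against 12.51 to 12.93. On 12 arrays 5 of 7 hepatocyte markers fell while none rose (4.36% and 7.09% of all genes). On the 6 compared 7 of 7 fell (12% of all genes). Xist, the RNA of the inactive X chromosome, read 8.49 to 9.20 with Yap off and 3.14 to 3.20 with Yap on, and Vsig4 is X-linked. Neutrophil markers had list medians of 4.08 to 4.26 with Yap off and 3.19 to 3.45 with Yap on. limma called 0 of 5 on 12 arrays, and 2 of 5 lower on the 6 compared (12% of all genes). Endothelial markers had 3.15 to 3.34 and 3.02 to 3.13, and limma called 0 of 6 in both fits. The part of any of these in the differences of Lyz2, C1qb, Vsig4 and Cd68, or of other genes compared between these groups, was not tested. Xist divided the Yap-off from the Yap-on arrays without overlap, so a difference that goes with Xist cannot be told apart from Yap state. It also divided the Yap-off arrays from W1 to W3, where it read at most 3.30. H1 and H3, at 8.82 or more, lay apart from W1, W3 and the Yap-on arrays. In these comparisons too, a difference that goes with Xist cannot be told apart from the labels compared.

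Wild-type organoids were compared with the sorted cells labelled hepatocyte. limma called 0 of 10 members and 0.0502% of all genes. An unadjusted limma p under 0.05 was held by 0 members and by 1762 of all 19937 genes. The members' log2 differences ran from 0.16 (Cd68) to 2.40 (Vsig4), with limma adjusted p between 0.756 and 0.982. Both labels overlapped in all 10 members, while 7.64% of all genes were without overlap. When H2 and W2 were left out, all 10 members were higher in the remaining wild-type organoids, by 3.45 (Cd68) to 7.96 (Vsig4), with limma adjusted p of at most 0.0012, and 30.7% of all genes were called (12.4% higher). That contrast sets W1 and W3 against H1 and H3, and the choice of libraries fixes its direction. Xist also divided W1 and W3 from H1 and H3, and its part in these differences was not tested.

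Both Yap groups averaged lower than wild-type organoids, and no member passed. Yap-off minus wild-type differences ran from -5.20 (Cd5l) to -2.88 (Marco), and Yap-on minus wild-type differences from -7.06 (Lyz2) to -2.09 (Cd68). limma called 0 of 10 in each (lowest adjusted p 0.124 for Csf1r and 0.055 for Lyz2), and 2.61% and 5.47% of all genes. An unadjusted limma p under 0.05 was held by 2 and 5 members, and by 3804 and 4400 of all 19937 genes. Lyz2 and Csf1r were lower without overlap in both, and Cd5l, Vsig4, Adgre1 and C1qb with Yap on, while 8.32% and 11.7% of all genes were so. For Cd5l, Vsig4, Adgre1 and C1qb the margin was small. Their highest Yap-on levels, 2.60, 2.89, 2.79 and 3.42, lay just below W2, at 2.79, 3.03, 2.80 and 3.52. Leaving out W2 alone gave 9 of 10 members lower in each comparison, all but Marco (8.39% and 11.7% of all genes). Leaving out H2 as well gave 10 of 10 lower (14.1% and 16.4%). Both counts rest on W1 and W3 alone as wild-type organoids, arrays known to be high in the members, so that the choice of libraries fixes their direction and they lend no support. These comparisons share W1 to W3. Xist divided the Yap-off arrays from W1 to W3 without overlap, and its part in that comparison was not tested.

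Against the cells labelled hepatocyte, Yap-off differences ran from -3.44 (Csf1r) to -2.12 (C1qb) and Yap-on differences from -4.96 (Lyz2) to -1.93 (Cd68). limma called 0 of 10 members in each, and 1.9% and 6.19% of all genes. An unadjusted limma p under 0.05 was held by 1 and 2 members, and by 2588 and 3905 of all 19937 genes. With Yap on, 9 members lay below H1 to H3 without overlap (21.1% of all genes), and with Yap off 4 did (8.58%). Without H2 and W2 the median difference was -0.11 for Yap-off and -0.56 for Yap-on organoids, and 2 members were lower in each (8.78% and 9.17% of all genes). H2 was left out for its high level of the members, so the smaller median follows from that choice. The choice also changes the members' spread and leaves H1 and H3 alone as hepatocytes. The calls and p-values of that fit are therefore descriptions and lend no support. Xist also divided the Yap-on arrays from H1 and H3, and its part there was not tested. With Yap off the 2 lower members were Csf1r (-2.01, limma adjusted p = 0.00040) and Cd68 (-1.76, adjusted p = 0.013). With Yap on they were Lyz2 (-2.88, limma adjusted p = 0.00012) and Csf1r (-2.21, adjusted p = 9.1e-05). Clec4f, at -0.04 and -0.22, was called in neither.

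Further Kupffer cell genes followed the members, with 10 of 12 listed higher in H2, W1 and W3 than on all other arrays. Timd4, a receptor for phosphatidylserine on dying cells, read 10.22 in H2, 9.0 in W1 and 9.79 in W3, against at most 3.51 elsewhere. Cd163, the receptor for haemoglobin bound to haptoglobin, read 10.08, 8.46 and 9.33 against at most 2.93. The exceptions were Slc15a2, a peptide transporter that stayed between 2.58 and 3.18, and Hmox1, which breaks down haem.

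Hmox1 read 11.92, 12.23 and 11.98 in H1 to H3, 11.01, 9.06 and 11.45 in W1 to W3, and 7.74 to 8.72 in the Yap arrays. It was the 1 gene of this list that limma called, lower with Yap on (-3.99, adjusted p = 0.0013) and with Yap off (-3.98, adjusted p = 0.0068) than in the cells labelled hepatocyte. Against wild-type organoids Hmox1 was lower too, by -2.45 (adjusted p = 0.024) and -2.44 (adjusted p = 0.044).

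Of 11 measured transcription factors of macrophages, 7 were highest in H2, W1 and W3. Spi1, which encodes PU.1, read 10.48, 8.50 and 8.95 there, against at most 3.77 on the other arrays. Spic, a related factor of iron-recycling macrophages, read 9.52, 7.02 and 8.13 against at most 2.95. Cebpa, which hepatocytes also use, was among the 7 by a small margin, at 8.65, 7.84 and 8.43 against at most 7.50. Cebpb, its relative, was not, at 7.55, 8.46 and 7.96 in H1 to H3 and 7.07, 7.36 and 7.43 in W1 to W3. With Yap on against Yap off, on 12 arrays, 2 of 11 fell and none rose (list median -0.53, against 4.36% and 7.09% of all genes). They were Cebpa (-1.81, limma adjusted p = 0.030) and Cebpb (-1.14, adjusted p = 0.0092). On the 6 arrays compared 6 of 11 fell and 3 rose (12% and 19.1% of all genes).

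A further list of 20 macrophage genes had 19 with H2, W1 and W3 on top. C1qc, the remaining chain of C1q, read 12.10, 11.47 and 11.83 there, and Tyrobp, an adaptor of myeloid receptors, 11.81, 11.03 and 11.58. The exception was Cd14, named after its values were seen. Of 8 measured monocyte genes 2 had the arrangement, Ccr2 and Itgal. Ccr2, the chemokine receptor of blood monocytes, also named after its values were seen, was lower in H2 (4.29) than in W1 (5.90) and W3 (6.09), against at most 3.04 elsewhere.

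The ligands of Csf1r did not follow their receptor. Csf1 was lowest in H2 (4.94) and highest in W2 (8.35), with the other arrays between 5.52 and 6.57. Il34 read 6.0, 6.31 and 7.42 with Yap on and 3.98, 4.23 and 4.46 with Yap off, and no more than 4.68 in H1 to H3 and W1 to W3. It rose by 2.35 with Yap on against Yap off (SE 0.35, limma adjusted p = 0.0021). Of 10 ligands of macrophages and their niche, Il34 and the chemokine Cx3cl1 (1.92, limma adjusted p = 0.0065) rose in that comparison on 12 arrays. None fell there (list median -0.21), while 7.09% of all genes rose and 4.36% fell. On the 6 arrays compared 3 of the 10 rose and 4 fell (19.1% and 12% of all genes). Gas6, a bridging ligand in the uptake of dying cells, averaged 9.02 with Yap on and 7.62 with Yap off (1.40, limma adjusted p = 0.11).

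Of 6 measured genes of the first complement component besides C1qa and C1qb, 2 were highest in H2, W1 and W3. They were C1qc and, by a small margin, C1ra, which encodes the protease C1r and read 5.46, 5.59 and 5.29 there against at most 5.11 elsewhere. C1s1, which encodes the protease C1s, read 8.01 in H1, 7.91 in H3 and 8.04 to 8.72 with Yap off, against 4.92, 4.67 and 5.08 in H2, W1 and W3. W2 (4.25) and the Yap-on arrays (2.90 to 3.50) lay lower still. Serping1, the inhibitor of C1, averaged 3.10 with Yap on and 10.63 with Yap off, a difference of -7.52 (SE 0.49, limma adjusted p = 6.9e-06). With Yap on against Yap off, on 12 arrays, 4 of the 6 fell and none rose (C1rl, C1s1, C1s2 and Serping1, list median -1.78), against 4.36% and 7.09% of all genes. C1qc differed there by -1.15 (limma adjusted p = 0.77). On the 6 arrays compared limma called 6 of 6 lower, C1qc among them (12% of all genes). Of 14 lysosomal genes 3 fell and none rose in the same comparison on 12 arrays (Ctsl, Ctsz and Npc1, list median -0.48, against 4.36% and 7.09% of all genes). On the 6 compared 8 of the 14 fell and 1 rose (12% and 19.1% of all genes).

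Endothelial markers were high in H2, W1 and W3 in 6 of 6 genes, with list medians of 7.91, 10.19 and 9.43. Stab2, a scavenger receptor of sinusoidal endothelium, was lower in H2 (7.61) than in W1 (10.94) and W3 (10.11), while Cdh5, the cadherin of endothelial junctions, was level at 10.56, 10.67 and 10.56. T and NK cell markers divided the 3 arrays. Nkg7, a granule protein of cytotoxic lymphocytes, read 3.99 in H2 against 9.95 in W1 and 9.70 in W3. The median of 6 such markers was 3.58 against 8.44 and 7.93, and 2.95 to 3.27 on the other arrays.

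Neutrophil markers were high with the members, with 5 of 5 highest in H2, W1 and W3 and medians of 9.63, 7.97 and 8.64. S100a8 read 11.70, 11.23 and 11.26, while Ly6g, their defining surface marker, read 3.77, 2.87 and 2.87 against at most 2.83 elsewhere. Bile duct markers took the opposite course in their median, at 3.35 to 3.70 in H2, W1 and W3 and 7.90 to 8.18 in H1, H3 and W2. It was 7.0 to 7.54 with Yap off and 8.80 to 8.88 with Yap on. Among them Epcam did so by a small margin, at 3.31 to 3.65 against 3.76 to 4.95. Cftr did not, at 2.22 to 2.83 in H1 to H3 and W1 to W3. Hepatocyte markers differed among themselves as well. Alb, the main plasma protein, lay between 11.53 and 12.33 in H1 to H3 and W1 to W3. Cyp2e1, a cytochrome of hepatocytes around the central vein, named after its values were seen, split these arrays as the members do, at 10.14, 10.03 and 9.90 in H2, W1 and W3 against 3.16, 3.22 and 2.74 in H1, H3 and W2. Cps1, the first enzyme of the urea cycle, read 5.07 in W2 and 9.23 to 9.94 in the other 5. The part of these other cells in the members' levels was not tested. The map of list medians and the plot of H2 against W1 and W3 show these lists together.

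**Figure D3:**
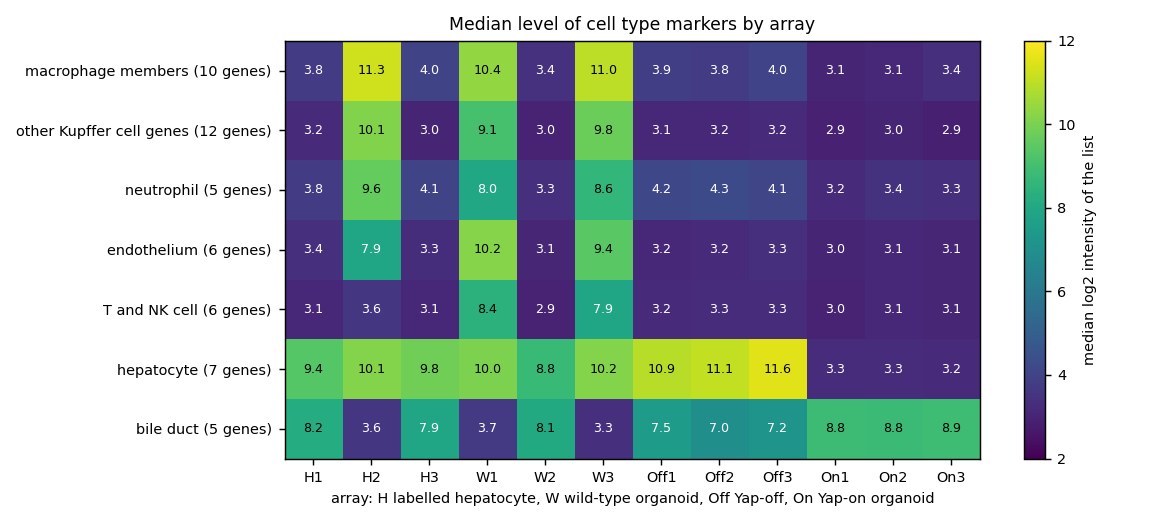
Median log2 intensity of each marker list (rows) in each array (columns), printed in the cells and shown by colour. The macrophage members reach 11.29, 10.39 and 11.02 in H2, W1 and W3, where T and NK cell markers read 3.58, 8.44 and 7.93.

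**Figure D4:**
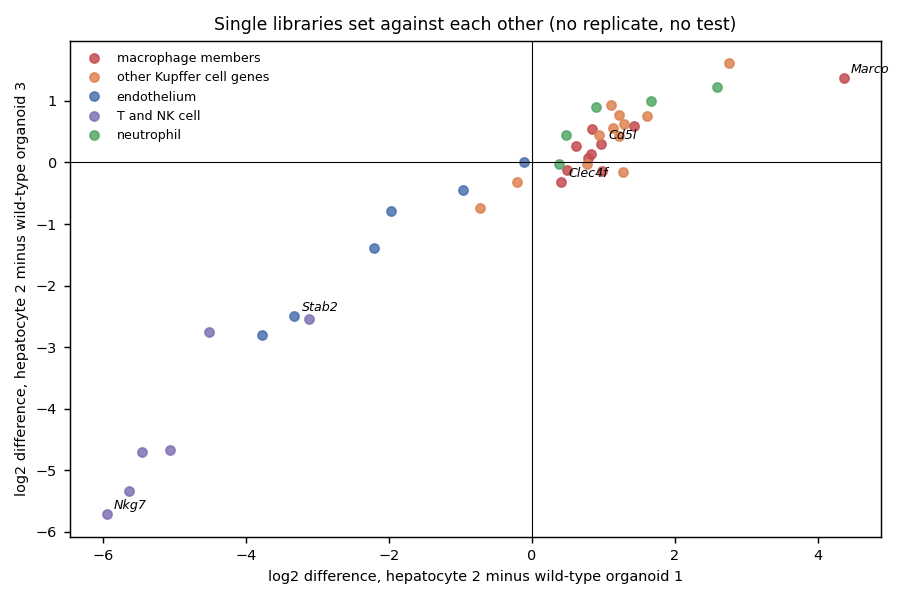
Each point is 1 gene, placed by its log2 difference between H2 and W1 (horizontal) or W3 (vertical). Macrophage members lie to the right of 0 with Marco farthest (4.36 and 1.37), and T and NK cell markers such as Nkg7 (-5.95 and -5.71) lie at the lower left.

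The genes most like the members were sought among 4895 genes whose range over the 12 arrays was at least 2. The 10 with the highest Pearson correlation with the members' mean were Dmpk, Casp1, Sdc3, Cd300c2, Cd84, Fli1, Itgb2, Nckap1l, Lcp2 and Chp2, with r from 0.997 (Chp2) to 0.999 (Dmpk). Casp1, the inflammatory caspase, read 7.99, 7.04 and 7.80 in H2, W1 and W3 against at most 3.45 elsewhere. Itgb2, an integrin chain of leukocytes, read 10.02, 8.78 and 9.18 against at most 3.63. In all, 128 genes had r of at least 0.99. The closest gene to Marco was Rassf2 (r = 0.998), which shared its low level in W1, at 7.64, 4.91 and 6.86. For Cd68 it was Fcgr3, an Fc receptor (r = 0.977), and for Csf1r it was Wfdc17 (r = 0.996). All arrays share 1 processing, and genes are not independent replicates.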

How the data were processed

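Total RNA of 12 libraries was labelled with a Nugen Pico WT kit and measured on 1 array each, per the labels' protocols. The deposited table holds an intensity per probe set, made with RMA per the submitters' processing notes, in a version that they do not name. These values lie on a linear scale (array medians 13.6 to 15.6), so log2 was taken here. The number of arrays limits the precision.

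Of 34760 rows, 21640 named 1 gene. The row with the highest mean was kept per gene, leaving 19937 genes, with no filter on low values and no detection calls. Group means were fitted on all 12 arrays in limma 3.58.1 (lmFit, eBayes, R 4.3.3) for 6 comparisons, with 8 residual and 1.76 prior degrees of freedom. Adjusted p-values are limma's, by Benjamini-Hochberg over all genes, called under 0.05. With 3 arrays against 3 a two-sided exact permutation test cannot go below 0.1, so none was used. The fit was tested on simulated data.

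The members and lists were chosen with earlier results of these data known. Named genes were the members, up to 4 genes per list with the highest maximum, any gene of the ligand, C1, Kupffer cell and transcription factor lists, and the genes most like the members. Genes outside this rule are Xist, C1s2, Ctsl, Ctsz, Npc1, Ly6g, Cftr and those marked as named after their values were seen. Alternatives were renewed quantile normalization, centring, the mean of a gene's rows, a filter on low genes, the 6 arrays compared, an intensity trend, array weights, the replicate block, a threshold of 0.01 and leaving out libraries. Figures were drawn with matplotlib 3.10.9.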

Additional observations from a re-analysis of the deposited data

How the results depend on the processing

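On all 12 arrays 0 of 10 members were called in each of the 6 comparisons. The count stayed 0 in all 6 with renewed quantile normalization, centring, the mean of rows, an intensity trend with robust eBayes and adjusted p under 0.01. Array weights gave 1 for Yap-on minus Yap-off (Lyz2), 9 for wild-type organoids minus hepatocytes, 10 for each Yap group minus wild-type organoids, and, minus hepatocytes, 1 with Yap off and 2 with Yap on. Without H2 and W2 the counts, in the same order, were 4, 10, 10, 10, 2 and 2. The 6 arrays compared gave 4 for Yap-on minus Yap-off and 0 in the other 5. A filter that dropped the lowest 30% of genes by mean gave 1 for Yap-on minus wild-type organoids (Lyz2) and 0 otherwise. With each library left out in turn, the count ran from 0 to 9 for each Yap group minus wild-type organoids, with 9 only when W2 was left out, and was 0 in the other 4 comparisons. Leaving out W2 or H2 selects on the members' own levels, so the counts of those fits are descriptions only in every comparison. Of the members' differences between Yap-on and Yap-off, only that of Clec4f changed sign under the alternatives run, to 0.0015 with renewed quantile normalization. Replicate numbers did not pair the Yap-on and Yap-off libraries: deviations of same-numbered arrays correlated at 0.07, 0.03 and -0.06. Those of same-numbered wild-type organoid and hepatocyte arrays ran in opposite directions, at -0.51, -0.71 and -0.66. The replicate block called 0 members in all 6 comparisons. No value here separates low levels from background, which limits what differences among the lower arrays show.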

Other observations

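Some listed macrophage or monocyte genes were high in the Yap-on organoids, where the members other than Cd68 averaged lower than with Yap off. Apart from Plac8 and Cd36 the genes here were named after their values were seen. Plac8, a small protein of myeloid and some epithelial cells, read 11.38, 11.48 and 11.47 with Yap on and 4.66, 7.27 and 6.0 with Yap off, a rise of 5.47 (SE 1.40, limma adjusted p = 0.033). It read 10.79, 9.52 and 9.75 in H2, W1 and W3. Tlr4, the receptor for bacterial lipopolysaccharide, read 6.74, 6.24 and 6.81 with Yap on and 2.80, 3.13 and 3.14 with Yap off, against 9.01, 8.13 and 8.45 in H2, W1 and W3. The Tlr4 difference of 3.57 was not called on 12 arrays (limma adjusted p = 0.22), where the spread carries the split inside the control labels. Tlr4 belongs to the further list of 20 macrophage genes, of which 0 were called on 12 arrays. On the 6 arrays compared, limma called 3 of the 20 higher and 6 lower (19.1% and 12% of all genes). Cd14, the partner of Tlr4 in binding lipopolysaccharide, read 9.88, 9.55 and 9.78 with Yap on, 9.01, 9.03 and 9.22 with Yap off, and 10.53, 7.91 and 9.83 in H2, W1 and W3.

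Mpeg1, a pore-forming protein of macrophages, went the other way, at 5.86, 6.66 and 6.84 with Yap off and 2.98, 3.29 and 3.23 with Yap on (-3.29, limma adjusted p = 0.28). Cd36, a scavenger receptor and fatty acid transporter of many cell types, read 7.90 to 8.16 with Yap off and 2.49 to 2.65 with Yap on (-5.46, limma adjusted p = 5.4e-05), and 7.82 to 9.96 in H1 to H3 and W1 to W3. Xist read 8.82 in H1 and 9.0 in H3, but 3.00 in H2 and 3.14 to 3.30 in W1 to W3.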
